A study of Mus musculus with 16 samples.

Results

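Among the tumour cells of WB1P and WB1P-Myc mice, which model triple-negative breast cancer, 124 of 4798 cells were myeloid cells with no UMI (unique molecular identifier, the tag that marks 1 captured transcript) of the complement genes C1qa, C1qb and C1qc but with abundant MHC class II transcripts. They were chosen on measured values. A member had 450 to 4000 detected genes, under 20% mitochondrial UMIs, at least 2 UMIs of Tyrobp, Fcer1g, Ctss, Lyz2, Cd68 and Csf1r together, no UMI of Cd3d, Cd3e, Cd3g or Nkg7, under 10 UMIs of Col1a2 and Col3a1 together, and at least 5 UMIs of Cd74, H2-Aa, H2-Ab1 and H2-Eb1 together per 1000 of its own UMIs. The levels of those genes in the members are therefore descriptions of the choice and carry no test. The working name for such cells is dendritic-like, and the dendritic markers set out below bear on that name only in part.

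The tumours came from female FVB/n mice at the end stage, without treatment. In WB1P mice (WapCre;Brca1F/F;Trp53F/F), the Wap promoter drives Cre in mammary epithelium and deletes Brca1 and Trp53 there. WB1P-Myc mice carry the same alleles and in addition Col1a1invCAG-Myc-IRES-Luc, a construct that overexpresses Myc once Cre has acted. Live, dapi-negative singlets were sorted and profiled by Drop-seq, which captures cells in droplets with barcoded beads and reads each transcript from its 3′ end. The cell suspension of each model was collected as 4 droplet fractions, and each has a HiSeq table (used here) and a MiSeq table. Both tables of a fraction shared at most 11 of 1000 barcodes, so MiSeq values below are from mostly other cells. There were 2 mice per model, the labels tie no cell or fraction to a mouse, and the mice's age is not stated in the sources used here. Each model is therefore taken as 1 sample, the fractions are technical, and no p-value is given. A difference between models cannot be told apart from one between the tumours sampled, or between their suspensions and libraries, which were separate for each model. Intervals are 95% intervals and cover counting error only.

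Dendritic cells take up antigen, cut it into peptides and present it on MHC class II to CD4 T cells. Conventional type 1 cells (cDC1) are known for cross-presentation to CD8 T cells, conventional type 2 cells (cDC2) for priming CD4 T cells, and mature, migratory cells for carrying antigen to lymph nodes under the receptor Ccr7. Macrophages and recruited monocytes of a tumour can also carry MHC class II, and C1q is made mainly by macrophages, which is why the 2 classes are set beside each other below.

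In WB1P tumours 46 of 1307 cells (3.52%, exact binomial interval 2.59 to 4.67%) were members, and in WB1P-Myc tumours 78 of 3491 (2.23%, 1.77 to 2.78%). By fraction the share was 0 of 65 cells, 3.99%, 3.81% and 3.32% in WB1P and 2.21%, 2.81%, 3.17% and 0.893% in WB1P-Myc. The 0 of the first WB1P fraction allows a share of up to 4.62% by a floor of 3 counts (exact binomial limit 5.52%), and its library held 256985 UMIs where the other WB1P libraries held 1729916 to 1918672. The mean over fractions was 2.78% ± 1.87 (SD, n = 4) in WB1P and 2.27% ± 1.00 (SD, n = 4) in WB1P-Myc, and the intervals of the pooled shares overlapped. The overlap of the fractions rested on the shallow first WB1P fraction, since the other 3 lay above every WB1P-Myc fraction, and the models have no replicate sample to test this on. Among the cells that met the myeloid, lymphoid and collagen criteria alone, members made up 46 of 434 (10.6%, 7.86 to 13.9%) in WB1P and 78 of 949 (8.22%, 6.55 to 10.2%) in WB1P-Myc. The myeloid cells with at least 2 C1q UMIs and at least 5 MHC class II UMIs per 1000, called C1q macrophages below, numbered 164 in WB1P (12.5% of cells) and 114 in WB1P-Myc (3.27%).

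**Figure D1:**
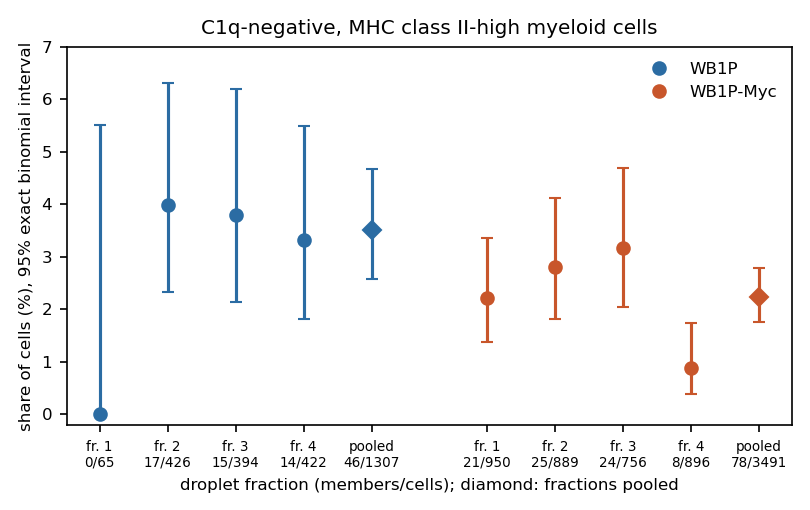
Share of cells that were C1q-negative and high in MHC class II (percent, y axis) in each droplet fraction of WB1P and WB1P-Myc, as points with exact binomial intervals, and in all fractions of a model together, as diamonds. The pooled shares were 3.52% and 2.23%, and the points run from 0 to 3.99% and from 0.893 to 3.17%, overlapping through the first WB1P fraction alone.

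The members were small libraries, with a median of 1187 UMIs (668 to 4480) and 706 genes per cell, against a median of 1664.5 UMIs in C1q macrophages and 2654 in epithelial cells. The WB1P members together held 61540 UMIs and the WB1P-Myc members 111349, and levels below are UMIs of a gene per 1000000 of those sums (CPM). Values by fraction are given for fractions 2 to 4 of WB1P, since its first held no member and 1 C1q macrophage, and for fractions 1 to 4 of WB1P-Myc. Where 2 values stand side by side without a name, the first is WB1P and the second WB1P-Myc. No member barcode occurred in a second HiSeq library. A median of 16 UMIs of the 6 myeloid genes was found per member and 34 per C1q macrophage. A further 18 MHC class II-high myeloid cells had exactly 1 C1q UMI and belonged to neither class. When C1q macrophages were thinned to 600 UMIs per cell, 2.94% of them in WB1P and 6.28% in WB1P-Myc were expected to show no C1q UMI. These cells were chosen for at least 2 C1q UMIs, so macrophages with fewer do not enter these shares. The number of C1q macrophages among the members was not tested.

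MHC class II transcripts were what the members were chosen for, and the H2-DM genes that help load class II with peptide were measured in every fraction with members. Class II UMIs per 1000 had a median of 25.6 (quartiles 16.9 and 40.2, highest 84.8), the median being 33.7 in WB1P and 19.8 in WB1P-Myc. The members just inside the threshold had 5.14, 5.27 and 5.74, and the C1q-negative myeloid cells just outside it 4.92, 4.86 and 4.66. The values ran through the threshold without a gap, with 11 members between 5 and 10 and 12 C1q-negative myeloid cells between 3 and 5. H2-Aa, the alpha chain of I-A, was at 12333 CPM in WB1P and 10202 CPM in WB1P-Myc members, beside 10776 and 8243 CPM in C1q macrophages. Its partner H2-Ab1 was at 11456 and 9277 CPM, beside 9610 and 6548 CPM. Cd74, the invariant chain that guards the class II groove, was at 9977 and 5344 CPM, beside 10195 and 4212 CPM, and in WB1P members its 3 fractions spread from 3803 to 16853 CPM. H2-Eb1 was at 146 and 171 CPM, beside 125 and 85.5 CPM.

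H2-DMb1 and H2-DMb2, the beta chains of the exchange factor that removes the invariant chain fragment, were not used in the choice. The level of H2-DMb1 was 815, 858 and 815 CPM in the 3 WB1P fractions with members and 401, 544, 444 and 816 CPM in WB1P-Myc. In C1q macrophages of the same fractions it was 500, 479 and 610 CPM and 422, 283, 352 and 189 CPM. All WB1P fractions of members lay above those of C1q macrophages and 3 of the 4 WB1P-Myc fractions lay above all of theirs, with a log2 ratio of 0.64 (0.16 to 1.09) in the former and 0.63 (0.09 to 1.17) in the latter. With each cell thinned to 600 UMIs, H2-DMb1 was found in 32.6% and 21.8% of members and 23.2% and 21.1% of C1q macrophages. The thinned shares of WB1P-Myc were thus alike. For H2-DMb2 the log2 ratio was 0.71 (0.24 to 1.15) and 0.97 (0.42 to 1.52), and for the alpha chain H2-DMa 0.57 (0.11 to 1.02) and 0.22 (-0.35 to 0.78). Lgmn, a lysosomal protease that starts invariant chain cleavage, was lower, at 276 and 485 CPM beside 956 and 1149 CPM (log2 ratio -1.79 and -1.24). Ciita, the master regulator of class II transcription, had 2 UMIs in WB1P and 7 in WB1P-Myc members, too few for a level.

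Class II genes share a promoter module that ends in a Y box, an inverted CCAAT motif read as ATTGG on the gene's own strand and bound by NF-Y. The windows of 80 bases from 110 to 31 bases before the start of 4 class II genes are shown because H2-Aa and H2-Eb1 were among the genes of the choice and H2-DMb1 and H2-DMb2 are the class II genes outside the choice described first. They are from the RefSeq promoter table of GRCm38.p6, 5′ to 3′ on the gene's strand, with ATTGG in capitals. Their positions are chr17:34287854-34287933 (minus strand) for H2-Aa, chr17:34305757-34305836 (plus) for H2-Eb1, chr17:34153081-34153160 (plus) for H2-DMb1 and chr17:34145139-34145218 (plus) for H2-DMb2.
H2-Aa: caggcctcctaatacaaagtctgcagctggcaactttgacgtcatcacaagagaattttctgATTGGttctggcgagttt
H2-Eb1: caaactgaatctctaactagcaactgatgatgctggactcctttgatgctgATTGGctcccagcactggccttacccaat
H2-DMb1: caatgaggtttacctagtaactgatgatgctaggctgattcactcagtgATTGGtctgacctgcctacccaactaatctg
H2-DMb2: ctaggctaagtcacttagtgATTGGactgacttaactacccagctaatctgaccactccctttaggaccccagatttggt
The motif began 48 bases before the start in H2-Aa, 59 in H2-Eb1, 61 in H2-DMb1 and 90 in H2-DMb2. Of the 13 genes listed (the 4 of the choice and 9 of the machinery), 9 had an entry. Of those 9, 7 (77.8%) held ATTGG in this window on the gene's strand, beside 2511 of 27025 promoters of all genes (9.29%). The 7 included Lgmn, a protease and not a class II chain, and H2-DMa and Ifi30 had no match in the window. ATTGG or its complement CCAAT anywhere in the whole window of the table was common, in 37.9% of all promoters. A match is a description of letters, not of a bound site.

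The dendritic markers were unevenly present. Flt3, the receptor of the dendritic growth factor, had 0 UMIs in WB1P members and 6 in WB1P-Myc members (in 2 cells), and Zbtb46, a transcription factor of conventional dendritic cells, had 0 and 2, where C1q macrophages of both models had 0 of either. Itgax (CD11c) was at 130 and 117 CPM in members, beside 134 and 171 CPM in C1q macrophages, with a log2 ratio of -0.04 (-1.34 to 1.06) and -0.55 (-1.59 to 0.40). In WB1P the Itgax value rested on fraction 4, without which it was -1.46. Flt3 and Zbtb46 were thus at 0 in WB1P members and in few WB1P-Myc members, and Itgax did not differ from C1q macrophages beyond its interval, so the cells are called members here and not dendritic cells. Napsa, an aspartic protease of dendritic cells, was at 45.3, 353 and 509 CPM in the WB1P fractions and 172, 374, 250 and 363 CPM in WB1P-Myc. In C1q macrophages the Napsa levels were 227, 154 and 106 CPM and 73.4, 86.9, 192 and 168 CPM. The fractions overlapped in both models, and the WB1P log2 ratio was 0.91 (0.05 to 1.71) and that of WB1P-Myc 1.02 (0.23 to 1.82). Without WB1P fraction 4 the WB1P ratio was 0.05, without fraction 2 it was 1.74, and in the MiSeq run it was -0.64.

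Ccl17, a chemokine that draws Ccr4-bearing T cells and one of the markers that came with the name, was carried by few members. It had 65 UMIs in 9 WB1P members, with up to 15 in a cell, and 55 UMIs in 4 WB1P-Myc members, of which 35 were in 1 cell. By fraction its level was 679, 505 and 2037 CPM in WB1P members and 1004, 646, 27.7 and 0 CPM in WB1P-Myc members. In C1q macrophages it was 114, 68.5 and 374 CPM in WB1P and 0, 0, 1185 and 0 CPM. In WB1P every fraction of members was above every fraction of C1q macrophages and the log2 ratio was 2.44 (1.92 to 2.96). In WB1P-Myc it was 0.49 (-0.04 to 1.01) and turned on the fraction, being -0.86 without fraction 1, while without fraction 3 the C1q macrophages were at 0 and the floor of 3 counts gave a bound of at least 5.15.

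The 4 dendritic lists (core, cDC1, cDC2 and mature, 41 genes of which 40 were in the tables) together gave 3575 CPM in WB1P members and 4481 CPM in WB1P-Myc members. C1q macrophages gave 2527 and 2450 CPM, so the summed level was higher in members by 0.50 (0.28 to 0.72) and 0.87 (0.69 to 1.05) on the log2 scale. Genes of these lists such as Itgax, Irf8, Sirpa and Itgam were also measured in C1q macrophages. Gene by gene, a change was counted where the ratio passed 2-fold in the same direction in both models, among genes with at least 10 UMIs over both classes in each model. Among the tested genes of the lists, 1 of 4 cDC1 genes was higher and 1 lower, and 0 of 2 core, 0 of 4 cDC2 and 0 of 6 mature genes were either. Of 6 tested genes of the class II machinery 0 were higher and 1, Lgmn, was lower. Of all 4051 genes tested, 85 (2.1%) were higher and 112 (2.76%) lower by that count, with medians of 0.00 and 0.03. Under TMM scaling, which put the median log2 ratio of the tested genes at -0.28 in WB1P and -0.11 in WB1P-Myc (0.0013 and 0.026 when scaled by UMIs), the split was 41 higher and 198 lower. The summed dendritic level over C1q macrophages was then 0.19 in WB1P, below the counting interval given above, and stayed within its interval in WB1P-Myc.

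Naaa, a lysosomal amidase abundant in cDC1, was the cDC1 gene that was higher. Its levels were 136, 202 and 560 CPM in WB1P members and 315, 340, 277 and 90.7 CPM in WB1P-Myc members. C1q macrophages had 79.6, 68.5 and 65.0 CPM and 128, 65.2, 112 and 84.0 CPM. The groups did not overlap in WB1P and overlapped through fraction 4 in WB1P-Myc, with log2 ratios of 2.06 (1.09 to 3.02, 1.19 without WB1P fraction 4) and 1.53 (0.69 to 2.39). The WB1P member fractions held only 3, 4 and 11 Naaa UMIs, and 8 of the 11 were in 1 cell. With each cell thinned to 600 UMIs, Naaa was found in 8.70% (2.42 to 20.8%) and 15.4% of members. In C1q macrophages the thinned shares were 3.05% (1.00 to 6.97%) and 5.26%. Cadm1, an adhesion molecule of cDC1, was the lower gene, with 1 and 4 UMIs (-2.28 and -2.44). Without fraction 2 the WB1P members were at 0, where the floor of 3 counts gives only a bound of -0.055 or lower. Irf8, the transcription factor that cDC1 require, was at 114 and 99 CPM beside 134 and 147 CPM (-0.24 and -0.58), the WB1P ratio being 0.45 without fraction 4 and -0.98 without fraction 2. Xcr1, the cDC1 chemokine receptor, had 4 UMIs in 1 WB1P cell and 3 in 2 WB1P-Myc cells, where C1q macrophages had 0. Clec9a had 0 and 1.

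Of the cDC2 genes, Mgl2, a C-type lectin, was at 569 and 98.8 CPM beside 280 and 66.4 CPM, with log2 ratios of 1.02 (0.42 to 1.60) and 0.57 (-0.71 to 1.82), the latter -0.80 without fraction 2 and 1.63 without fraction 3. Itgam (CD11b) had log2 ratios of 1.00 and 0.55 and Sirpa, the receptor of Cd47, -0.72 and -0.34, the latter -1.22 without fraction 3. In the MiSeq run the WB1P ratio of Itgam turned, to -0.081. Irf4, which cDC2 require, had 1 and 3 UMIs, and Cd209a 1 and 11. The mature list summed to 894 CPM in WB1P members (a UMI in 27 of 46) and 2039 CPM in WB1P-Myc members (46 of 78), beside 874 and 594 CPM in C1q macrophages. Ccr7 had 28 UMIs in 8 WB1P-Myc cells and 0 in WB1P members, and it was found in each of the 4 WB1P-Myc fractions, at 430, 136, 166 and 272 CPM. Its log2 ratio over C1q macrophages of WB1P-Myc was 5.73 (3.13 to 11.08), and 4.73 without fraction 1. For Ccl22, a further ligand of Ccr4, the ratio was 2.62 (13 UMIs, with 0 in WB1P members) and 1.35 without fraction 1. With the myeloid criterion at 5 UMIs per 1000 the Ccl22 ratio turned, to -0.66, with an interval that includes 0. Without fraction 3 the C1q macrophages had no Ccr7 UMI, and the ratio was at least 3.85 by the floor of 3 counts. Il12b, the shared subunit of interleukins 12 and 23, had 23 UMIs in 3 WB1P-Myc cells. The 6 tested mature genes had median log2 ratios of -0.39 and 1.36 over C1q macrophages. Samsn1, an adaptor protein and 1 of the 6, was at 422 and 431 CPM beside 216 and 123 CPM (0.97 and 1.80, the latter 1.05 without fraction 3).

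**Figure D2:**
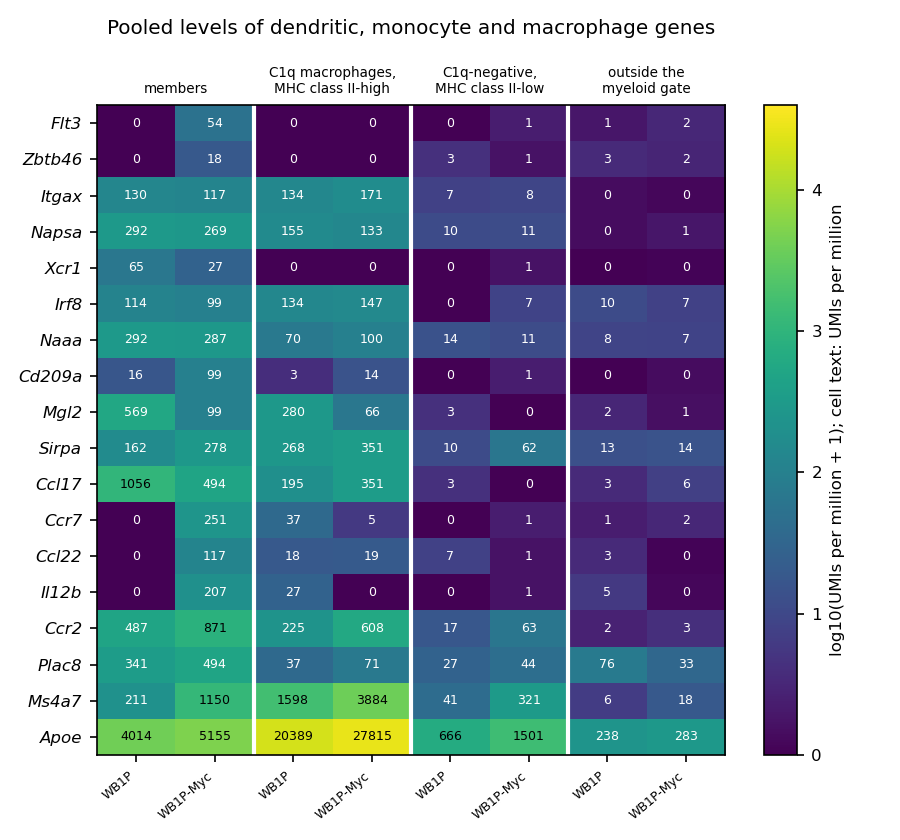
Heat map of the levels of 18 genes (rows, log10 of CPM + 1 as colour, with the CPM printed in each field) in members, C1q macrophages, C1q-negative myeloid cells low in MHC class II and cells outside the myeloid gate, for WB1P and WB1P-Myc. Plac8 is at 341 and 494 CPM in members and 36.5 and 71.2 CPM in C1q macrophages, whereas Apoe is at 4014 and 5155 CPM in members and 20389 and 27815 CPM in C1q macrophages.

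Markers of most other lineages had few UMIs in the members. Mast cell genes had 0 UMIs in both models, plasmacytoid dendritic genes 1 and 7, B cell genes 2 and 8, endothelial genes 0 and 4, neutrophil genes 3 and 9, other T and NK cell genes 9 and 9, and fibroblast genes 6 and 11. Schwann and glial genes had 2 and 22 UMIs, the latter at 198 CPM beside 185 CPM in C1q macrophages of WB1P-Myc. Epithelial genes summed to 325 and 377 CPM, with fractions from 90.6 to 509 CPM in the former and from 229 to 612 CPM in the latter model, beside 250 and 228 CPM in C1q macrophages and 6357 and 3109 CPM in epithelial cells. The epithelial level was above that of C1q macrophages and below that of epithelial cells, and 5 members had 3 or more epithelial UMIs.

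The genes highest in members over C1q macrophages were led by Plac8 and S100a4. Both classes were cut from the same myeloid cells by C1q, so genes that vary with C1q differ between them by construction and the values are descriptions. Plac8, a gene of Ly6C-high monocytes, was at 453, 404 and 153 CPM in the WB1P fractions and 373, 476, 499 and 907 CPM in WB1P-Myc. C1q macrophages had 68.2, 8.56 and 40.6 CPM and 36.7, 109, 48.0 and 105 CPM of Plac8. Every fraction of members was above every fraction of C1q macrophages in both models, with log2 ratios of 3.22 (2.13 to 4.38) and 2.79 (1.95 to 3.72), the former 2.58 without WB1P fraction 3.

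Of the calcium-binding S100 proteins, S100a4, S100a6 and S100a11 were higher in members. S100a4 was at 951, 707 and 967 CPM and 660, 1054, 804 and 2086 CPM in members. C1q macrophages had 45.5, 137 and 65.0 CPM and 36.7, 130, 352 and 168 CPM of S100a4. The groups did not overlap, and the log2 ratios were 3.36 (2.68 to 4.08) and 2.40 (1.85 to 2.97), or 4.08 and 3.24 without fraction 3 of the model. S100a6 had log2 ratios of 2.36 and 2.08, and S100a11 of 1.38 and 1.67. S100a6 was also abundant outside the myeloid gate, at 3966 CPM in WB1P and 1385 CPM in WB1P-Myc, while C1q macrophages of the same libraries had 447 and 437 CPM beside 2291 and 1841 CPM in members. S100a11 rested partly on fraction 4 of each model, and without WB1P fraction 4 its WB1P ratio was 0.60, while the WB1P-Myc ratio was 2.54 without fraction 3.

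Lsp1, a leukocyte actin-binding protein, was at 545, 544, 832 and 907 CPM in the WB1P-Myc members and 147, 109, 160 and 147 CPM in C1q macrophages, with log2 ratios of 1.66 in WB1P, which was 1.05 without fraction 4, and 2.24 in WB1P-Myc. Plbd1, a phospholipase-like protein, was higher by 1.91 and 1.49, the former being 1.10 without WB1P fraction 4. Cd97, an adhesion receptor, was higher by 2.29 and 2.60 and the coagulation factor gene F10 by 2.64 (1.66 to 3.63) and 3.24 (1.01 to 6.47), both from few UMIs. Leaving out 1 WB1P-Myc fraction gave 1.59 to 3.35 for Cd97 and 2.35 to 4.15 for F10, and Cd97 was at 3.02 without WB1P fraction 3. The nuclear genes H2afy (histone macroH2A) and Lmnb1 (lamin B1) were higher by 1.62 and 1.53 and by 1.62 and 1.63. Tmsb10, which binds actin monomers, was higher by 1.15 and 1.38. Areg, the growth factor amphiregulin, completed the 12, but 27 of its 28 WB1P UMIs were in fraction 2 and 26 in 1 cell. Its WB1P ratio of 1.64 became -2.68 without that fraction, and that of WB1P-Myc 4.84 without fraction 1. In the MiSeq run the WB1P ratios of Plbd1 and Lmnb1 turned, to -1.49 and -0.32.

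**Figure D3:**
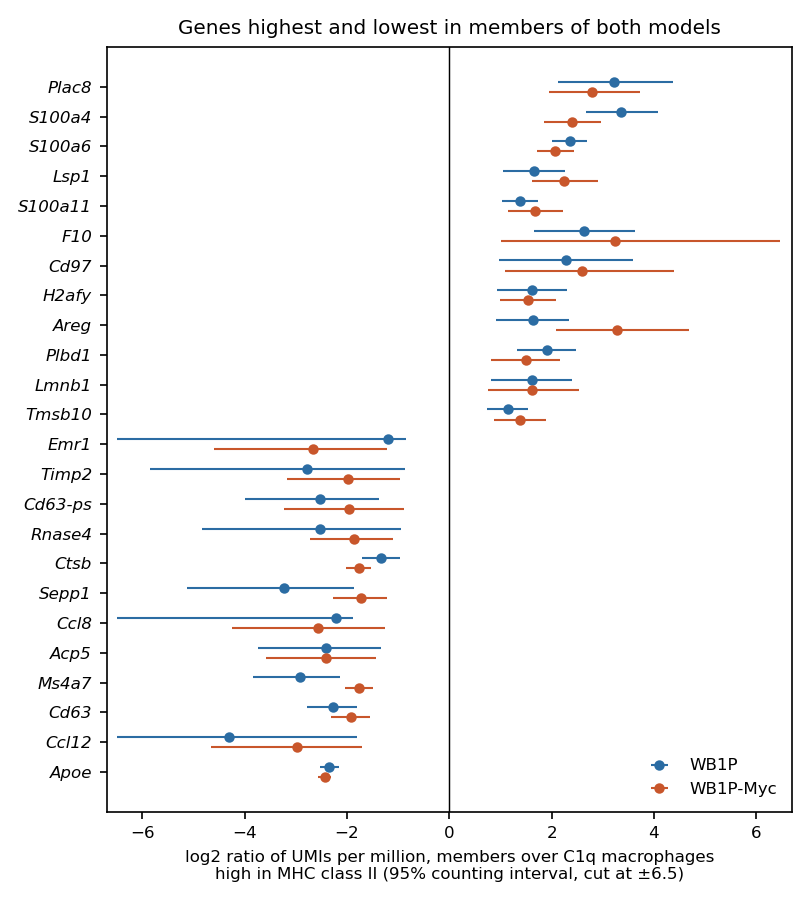
Log2 ratio of members to C1q macrophages (x axis, with 95% intervals of counting error, axis cut at 6.5 on either side) for the 12 genes highest and 12 genes lowest in members, in WB1P and WB1P-Myc. Plac8 and S100a4 lie far to the right in WB1P, at 3.22 and 3.36, and Apoe lies at -2.34 and -2.43 with narrow intervals.

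The genes lowest in members over C1q macrophages included Apoe, Ms4a7, Cd63 and Ctsb. Apoe, the lipid carrier, was at 3984, 5552 and 2495 CPM in WB1P and 2437, 4932, 8711 and 2721 CPM in WB1P-Myc. C1q macrophages had 18322, 18519 and 23625 CPM and 32395, 30750, 19549 and 30580 CPM. The groups were far apart in both models, with log2 ratios of -2.34 (-2.53 to -2.16) and -2.43 (-2.56 to -2.31), and -3.18 in WB1P-Myc without fraction 3. Apoe was unevenly spread among the members, found in 32 WB1P members with at most 47 UMIs in a cell and in 46 WB1P-Myc members with at most 117.

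Ms4a7, a membrane protein of macrophages, was at 453, 151 and 0 CPM in WB1P and 860, 918, 1637 and 1088 CPM in WB1P-Myc. C1q macrophages had 1240, 1634 and 1829 CPM and 4717, 4281, 2738 and 4050 CPM of Ms4a7. All fractions of members lay below all of theirs, and the log2 ratio was -2.92 (-3.84 to -2.13) and -1.76 (-2.04 to -1.49), with -4.51 in WB1P without fraction 2 and -2.23 without fraction 4. Cd63, a tetraspanin of late endosomes, had log2 ratios of -2.28 (-3.17 without WB1P fraction 3) and -1.92, and its pseudogene Cd63-ps moved with it but cannot be told apart from it with certainty since they share sequence. The cathepsin gene Ctsb was at 1358, 1211 and 764 CPM and 1577, 1428, 1443 and 726 CPM, beside 2413 to 3284 CPM in C1q macrophages of WB1P and 3827 to 6057 CPM in those of WB1P-Myc. No fraction of members reached those Ctsb levels, and the log2 ratios were -1.33 and -1.77.

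Lower too were the acid phosphatase Acp5, with log2 ratios of -2.41 and -2.42, the selenium carrier Sepp1, with -3.23 and -1.73, the ribonuclease Rnase4, with -2.54 and -1.86, and the protease inhibitor Timp2, with -2.77 and -1.98. In the MiSeq run the WB1P ratio of Acp5 turned, to 1.19. Without fraction 3 of WB1P-Myc Acp5 was at -3.21 and Rnase4 at -3.19, without fraction 3 of WB1P Rnase4 was at -3.79, without fraction 2 of WB1P-Myc Timp2 was at -2.85, and Sepp1 was at -4.79 without fraction 2 and -2.49 without fraction 4 of WB1P. Emr1, which encodes the macrophage antigen F4/80, had 0 and 4 UMIs in members, and its ratio was -2.67 in WB1P-Myc. Ccl12 and Ccl8, chemokines for monocytes, had 1 and 5 UMIs and 0 and 5 UMIs in members, beside 323 and 356 CPM and 225 and 266 CPM in C1q macrophages. The log2 ratios of Ccl12 were -4.31 (-3.68 and -3.71 without fractions 3 and 4, and a bound of -2.18 or lower without fraction 2, where members were at 0) and -2.99 (-5.13 and -2.30 without fractions 3 and 4). Ccl8 was lower by -2.21 or more in WB1P, a bound set by the floor of 3 counts, and at -2.57 in WB1P-Myc. Without WB1P fraction 3 or 4 that bound was -1.50 or -1.41, and without WB1P-Myc fraction 1 the ratio was -3.18.

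By list, 4 of 9 tested macrophage genes, 5 of 13 lysosome and lipid genes and 2 of 7 engulfment genes were lower in both models and none of these was higher, beside the 2.76% over all genes. Their medians were -1.21 and -1.36, -0.91 and -1.27, and -1.14 and -1.23. The lists share Apoe, Trem2, Mertk and Gas6 between them, so they are not separate observations. Mertk, a receptor for dying cells, was at -1.75 and -3.17 and Stab1, a scavenger receptor, at -2.54 and -1.30, whereas Lpl (lipoprotein lipase) was at 2.16 and 0.43 and Axl at 0.58 and -0.45. Of 5 tested monocyte genes, Plac8 and Thbs1 (thrombospondin 1, 1.64 and 1.70) were higher, beside the 2.1% over all genes, and the list's median was 1.11 and 0.55. Ccr2, the receptor that brings monocytes out of the marrow, was at 815, 303 and 305 CPM in WB1P members and 946, 1224, 555 and 726 CPM in WB1P-Myc members. Those Ccr2 levels were above the 205 to 244 CPM of C1q macrophages in WB1P and overlapped with their 440 to 817 CPM in WB1P-Myc, with log2 ratios of 1.11 (0.45 to 1.74) and 0.52 (0.12 to 0.91).

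Secreted factors were mixed. Of 12 tested chemokines 0 were higher and 2 lower, beside the 2.1% and 2.76% over all genes, with medians of 0.08 and -0.63. Ccl6 was higher by 0.76 (0.49 to 1.01) and 0.76 (0.39 to 1.13), Ccl9 by 1.25 and 0.60 and Cxcl2, a neutrophil attractant, by 0.57 and 1.19, while Cxcl16 was at -0.69 and -0.64. Without WB1P-Myc fraction 3 the second Ccl6 value was 1.59. Ccl5 had 1 UMI in WB1P and 56 in WB1P-Myc members, of which 48 were in fraction 3. Its WB1P-Myc ratio was 1.03 with that fraction and -1.72 without it, and 4.25 without fraction 1, where C1q macrophages held 46 of their UMIs. The Ccl5 ratio turned to -1.20 with at least 4 myeloid UMIs and to -1.19 with at least 5 per 1000. None of 5 cytokines passed 2-fold in both models, beside the same 2.1% and 2.76% over all genes. Il1b was at 3575 and 2901 CPM beside 2931 and 1719 CPM, a log2 ratio of 0.29 (0.07 to 0.50) and 0.75 (0.53 to 0.98).

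None of the 6 co-stimulation and checkpoint genes, 10 lineage transcription factors, 8 lectins and sensors, 7 MHC class I genes, 5 interferon-response genes or 8 early-response and stress genes passed in either direction. Over all genes 2.1% were higher and 2.76% lower, so a list of this length may hold none and the counts do not set these lists apart. Cd86 was at -0.41 and 0.27, Cd83 at -0.25 and 0.62 (0.09 to 1.15), Cd40 at 0.25 and 2.18 and Havcr2 (Tim-3) at -0.77 and -1.08, the latter -1.68 without fraction 4. In the MiSeq run the WB1P-Myc ratio of Cd83 turned, to -0.11. Of the transcription factors, Nr4a3 was at 0.89 and 0.41. Clec7a, the beta-glucan receptor dectin-1, was at 2145 and 1652 CPM beside 1175 and 973 CPM (0.87 and 0.76). MHC class I presentation was at medians of -0.17 and -0.18, with H2-K1 at -0.40 and -0.77. Interferon-response genes were at a median of -0.75 in WB1P and 0.92 in WB1P-Myc. Of 5 cell-cycle genes, the proliferation marker Mki67 was higher, at 1.19 and 1.56, beside the 2.1% over all genes, and Stmn1 was at -0.42 and -0.82.

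For Plac8, S100a4, Apoe and Ms4a7 the shares of cells with a UMI lay in the same order as the levels once each cell was thinned to 600 UMIs, with no cell left out. Before thinning the median depth was 1187 UMIs in members and 2654 in epithelial cells. The latter are cells outside the myeloid gate with 3 or more epithelial UMIs, and they serve as a background of free RNA. Their median of UMIs of the 6 myeloid genes was 0, since the gate took cells with at least 2 that met its other criteria. This background is therefore low in myeloid RNA in part by the choice. Plac8 was found in 17.4% and 17.9% of members, 1.83% and 5.26% of C1q macrophages and 0.842% and 0.690% of epithelial cells. S100a4 was found in 26.1% and 39.7% of members, 5.49% and 7.02% of C1q macrophages and 3.37% and 2.07% of epithelial cells. Ccr2 was in 23.9% and 34.6% of members, 14.0% and 28.1% of C1q macrophages and 0 and 0.172% of epithelial cells. These 3 genes were thus found in a larger share of members than of epithelial cells. How much of that gap comes from the choice of the epithelial cells was not tested. Without thinning, Plac8 was found in 23.9% and 28.2% of members and 6.10% and 8.77% of C1q macrophages, S100a4 in 41.3% and 57.7% and 10.98% and 17.5%, and Ccr2 in 32.6% and 59.0% and 27.4% and 46.5%. Apoe was found in 58.7% and 53.8% of members and 95.1% and 95.6% of C1q macrophages, beside 10.1% and 8.97% of epithelial cells, and Ms4a7 in 4.35% and 23.1% of members, 40.9% and 74.6% of C1q macrophages and 0.211% and 0.690% of epithelial cells. Without thinning, Apoe was found in 69.6% and 59.0% of members and 98.8% and 98.2% of C1q macrophages, and Ms4a7 in 8.70% and 26.9% and 54.9% and 85.1%. S100a6 was found in 67.4% and 60.3% of members, 21.3% and 20.2% of C1q macrophages and 69.5% and 38.4% of epithelial cells, which carry it at high levels themselves and so do not measure its free RNA. Without thinning the S100a6 shares were 78.3% and 70.5% of members and 45.1% and 36.0% of C1q macrophages.

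The C1q-negative cells below the MHC class II threshold, 68 in WB1P and 348 in WB1P-Myc, were a poor counterpart. Their median of myeloid UMIs was 3, against 16 in members, their epithelial genes summed to 3931 and 770 CPM, and 119 of the 416 had 3 or more epithelial UMIs. Against them 440 of 4915 genes tested (8.95%) were higher in members and 426 (8.67%) lower, and without WB1P fraction 4 the higher count was 290. When the myeloid criterion was set at 5 UMIs per 1000, chosen after seeing the data, the counts were 27 and 19. Fewer cells entered then and fewer genes could reach the count minimum, so these are not counts out of the 4915. H2-DMb1 (5.94 and 6.33 on the log2 scale), H2-DMb2 (6.05 and 6.60), H2-DMa (6.41 and 4.69), Plbd1 (5.17 and 4.94), the decoy receptor Il1r2 (4.77 and 6.98) and Cd52 (4.38 and 4.31) led the higher genes together with Ccl17 and Mgl2. Members and the C1q-negative low cells were parted by MHC class II UMIs, so genes that vary with class II differ between them by construction. The few myeloid UMIs of the low cells also bear on these ratios, and the values are descriptions. Without WB1P fraction 2 the WB1P values were 7.59 for H2-DMa, 6.68 for H2-DMb1 and 6.64 for H2-DMb2, and without fraction 4 they were 5.66 for H2-DMa, 5.16 for H2-DMb1 and 4.43 for Plbd1, which was at 5.94 without fraction 3. H2-DMb2 was at 7.50 in WB1P-Myc without fraction 4. The lower genes were led by Cdkn2a, the small heat shock protein Hspb1, Egr1, Serpine2, the collagen chaperone Serpinh1, Gas5, Cyr61 and the collagen gene Col9a1. With that criterion Gas5 turned in WB1P-Myc, to 0.15 (-0.48 to 0.76). Among them Serpine2 was at -4.99 and -3.96, the latter -3.33 without fraction 2 and, with members at 0 without fraction 3, a bound of -1.73 or lower, and the former -4.31 and -5.67 without fractions 2 and 3. Egr1 was at -3.32 (-2.61 without WB1P fraction 2) and -2.22. Il1r2 was also higher than in C1q macrophages, at 1202 and 772 CPM beside 548 and 138 CPM (1.13 and 2.49).

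The members were not uniform. To describe this, 5 sets of genes were drawn up after their values had been seen, so their counts are descriptions. UMIs of Ccr7, Ccl22, Fscn1, Il4i1 or Il12b were found in 13 members, 1 in WB1P (2.17%) and 12 in WB1P-Myc (15.4%). Those of Xcr1, Clec9a, Itgae or Gcsam were found in 5 (2 and 3), and those of Mgl2, Cd209a or Clec10a in 31, 17 in WB1P (37.0%) and 14 in WB1P-Myc (17.9%). Ccl17 was found in 13 (9 and 4) and Ms4a7 in 25 (4 and 21). By whole list, 29 members had 2 or more UMIs of the cDC1 genes, 48 of the cDC2 genes and 43 of the mature genes, and 77 of the monocyte and 100 of the macrophage genes. Macrophage-list UMIs (2 or more) were shared by 21 of the 29 (72.4%), 42 of the 48 (87.5%) and 32 of the 43 (74.4%), which were 21%, 42% and 32% of the 100. Among the members outside each list the shares with macrophage-list UMIs were 83.2%, 76.3% and 84.0%. In the sets of genes they were 5 of the 13 with Ccr7, Ccl22, Fscn1, Il4i1 or Il12b (38.5%), 1 of the 5 with Xcr1, Clec9a, Itgae or Gcsam (20%), 7 of the 13 with Ccl17 (53.8%) and 23 of the 31 with Mgl2, Cd209a or Clec10a (74.2%), or 5%, 1%, 7% and 23% of the 100. Of all members 58 had no UMI of any of these sets, 47 had UMIs of exactly 1 and 19 of more, and at a median of 1187 UMIs a cell without a UMI is not shown to lack the gene.

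The 13 members of the mature set carried 54 of the 57 Ccl5 UMIs, 2602 CPM against 19.7 CPM in the other members. Of the 54, 24 were in 1 cell and 20 in another, each with 2 UMIs of the 6 myeloid genes. Relb, an NF-κB subunit of mature dendritic cells, was at 482 CPM in the 13 against 39.4 CPM in the other members, Cd40 at 337 against 46.0 CPM, Il1r2 at 2313 against 736 CPM and Samsn1 at 1204 against 322 CPM. Apoe was at 145 against 5377 CPM, a log2 ratio of -5.22, and none of the 13 had 5 or more Apoe UMIs, where 41 of all members did. Lyz2 was at -1.63 and Cd14 at -1.36. By the whole mature list, 10 of the 43 members with 2 or more UMIs (23.3%) had 5 or more Apoe UMIs, which was 24.4% of the 41.

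The 5 members with Xcr1-set UMIs had 2157 CPM of Naaa, found in 3 of the 5, against 194 CPM in the other members, a log2 ratio of 3.47. Irf8 was at 1.98 (-0.45 to 3.80) and Cd74 at 0.77 in them, and Lyz2 was at -4.11, Cd14 at -4.71, Apoe at -4.38 and Il1b at -2.77. The members with Mgl2-set UMIs held 117 of the 120 Ccl17 UMIs, and 10 of the 13 cells with Ccl17 were among them. In these cells Apoe was at -2.13 and Ms4a7 at -2.70. The 25 members with Ms4a7 were the counterpart, with Apoe at 2.65, the mannose receptor Mrc1 at 1.22, Il1b at -1.06 and Ccl17 at -5.15. Ccr2 was spread more widely, in 61 members, 15 in WB1P (32.6%) and 46 in WB1P-Myc (59.0%), and Ly6c2 or Plac8 in 36 (11 and 25).

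**Figure D4:**
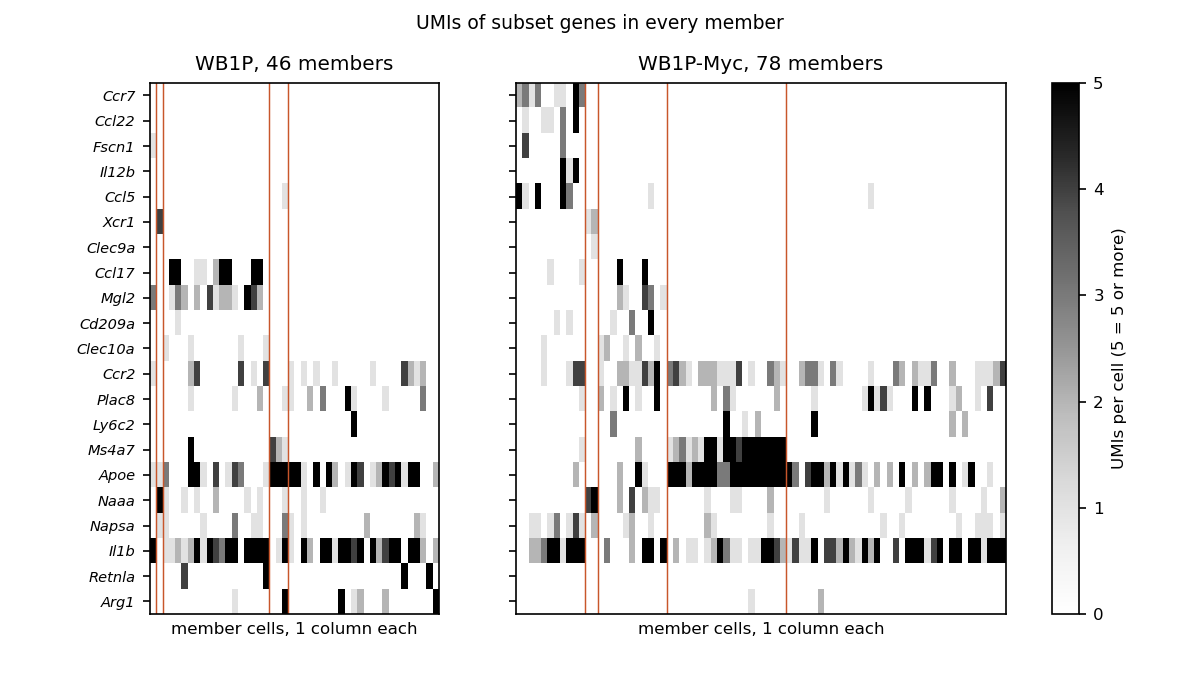
UMIs of 21 subset genes (rows) in each of the 46 WB1P and 78 WB1P-Myc members (columns, 1 per cell), as colour capped at 5 UMIs, with the cells ordered in mature, Xcr1, Mgl2 and Ms4a7 blocks in turn and lines between them. The blocks differ from the sets of the text. The mature block was cut by Ccr7, Ccl22, Fscn1 or Il12b, without Il4i1. The Xcr1 block was cut by Xcr1 or Clec9a, and the Mgl2 block by Mgl2, Cd209a, Clec10a or Ccl17. The mature block holds 1 WB1P cell, and its other cells are from WB1P-Myc. Apoe, found in 32 and 46 members, is dark through the Ms4a7 block and light in the mature block of WB1P-Myc.

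Between the models, members of WB1P-Myc were set against those of WB1P for genes with at least 20 UMIs over both. Of 1530 genes, 188 (12.3%) were more than 2-fold higher in WB1P-Myc and 92 (6.01%) lower, with a median of 0.07, and the higher count was 117 without WB1P-Myc fraction 3. Maf, a macrophage transcription factor, had 42 UMIs in 19 WB1P-Myc members and 0 in WB1P members, so it was at least 2.95 higher on the log2 scale against the floor of 3 counts. Its level was 258, 510, 444 and 181 CPM in the WB1P-Myc fractions and 0 in all 3 WB1P fractions with members, and in C1q macrophages the model ratio was 1.28. Without WB1P fraction 2 the bound for Maf was 2.31. Slfn5, an interferon-inducible gene, had 48 UMIs in 24 WB1P-Myc cells and 1 in WB1P, a log2 ratio of 4.73 (4.09 without WB1P fraction 2, and at least 2.58 without fraction 3, which held the WB1P UMI), with 1.13 in C1q macrophages. It was found in each WB1P-Myc fraction, at 229, 544, 527 and 453 CPM. Ifi202b, also interferon-inducible, was higher by 4.50 (3.86 without WB1P fraction 2, and at least 2.36 without fraction 3, which held the WB1P UMI), with 0.28 in C1q macrophages. Ms4a7 was higher by 2.44 (1.62 to 3.39) and Ccr2 by 0.84 (0.23 to 1.48).

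Ccr7, with 28 UMIs against 0, was at least 2.37 higher, and without the cell that held most of its UMIs at least 1.40, or without WB1P fraction 2 at least 1.73. In C1q macrophages Ccr7 went the other way, at -2.94, from 12 UMIs in WB1P and 1 in WB1P-Myc. With each cell thinned to 600 UMIs, it was found in 1 of 164 WB1P and 0 of 114 WB1P-Myc C1q macrophages, so few cells carry that ratio. Ccl5 was higher by 4.95 (2.41 to 10.28) but with 48 of its 56 UMIs in fraction 3, without which it was 2.71. Cxcl1, a neutrophil attractant, was higher by 3.49 (1.88 to 5.81, and 2.85 without WB1P fraction 2), where C1q macrophages had -1.14. Cells outside the myeloid gate had 1114 CPM of Cxcl1 in WB1P and 273 CPM in WB1P-Myc, so they too went the other way.

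The genes lower in WB1P-Myc included several that rested on few cells. Retnla, an effector of interleukin 4 signalling, had 222 UMIs in 4 WB1P members, 75 in fraction 2 and 147 in fraction 3, and 0 in WB1P-Myc members. Saa3, an acute-phase protein, had all of its 61 WB1P UMIs in 1 cell. Arg1 (arginase 1) had 33 UMIs in 7 WB1P cells and 3 in WB1P-Myc, a log2 ratio of -4.31 (-5.46 without WB1P-Myc fraction 2), with -2.17 in C1q macrophages. Tnfrsf9, the co-stimulatory receptor 4-1BB, had 25 UMIs in WB1P and 2 in WB1P-Myc (-4.50, or -3.59 without WB1P fraction 3, and a bound of -3.76 or lower without WB1P-Myc fraction 4). Mt1, a metallothionein, was measured in every fraction with members, at 4528, 4139 and 2546 CPM in WB1P and 1061, 782, 1110 and 181 CPM in WB1P-Myc. Every WB1P fraction was above every WB1P-Myc fraction, and the log2 ratio was -2.04 (-2.39 to -1.70), with -1.55 in C1q macrophages. Mmp12, the macrophage elastase, was at 770, 808 and 1324 CPM and 401, 136, 27.7 and 90.7 CPM, again without overlap, and at -2.42 (-3.61 without WB1P-Myc fraction 1), with -4.07 in C1q macrophages. In the MiSeq run Arg1 and Mmp12 turned, to 4.08 and 2.82.

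**Figure D5:**
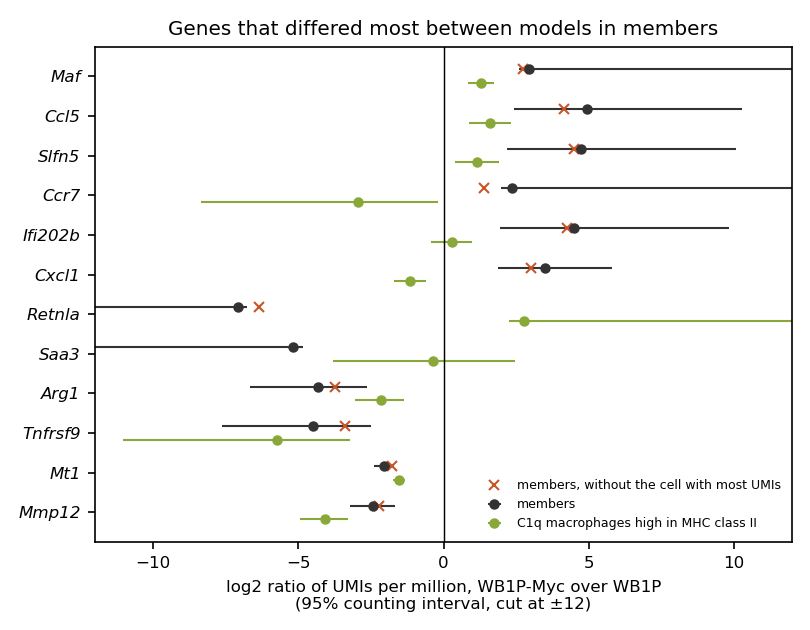
Log2 ratio of WB1P-Myc to WB1P (x axis, 95% intervals of counting error, axis cut at 12 on either side) for the 12 genes that differed most between members of the models, in members (black), in members without the cell with most UMIs of that gene (red crosses) and in C1q macrophages (green). Mt1, at -2.04 in members and -1.55 in C1q macrophages, is close in both, whereas Ccr7 and Cxcl1 lie on opposite sides, at -2.94 and -1.14 in C1q macrophages. The Ccr7 value of C1q macrophages rests on few UMIs. With each cell thinned to 600 UMIs, Ccr7 was found in 1 of 164 WB1P and 0 of 114 WB1P-Myc C1q macrophages.

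Among the subset genes, Mgl2 was lower in WB1P-Myc, at -2.53 (-3.54 without WB1P-Myc fraction 2), and Ccl17 at -1.10 (-1.64 to -0.56), the latter -0.27 without WB1P fraction 4 and -2.01 without WB1P-Myc fraction 1. With the myeloid criterion at 5 UMIs per 1000 the Ccl17 ratio turned, to 0.54 (-0.20 to 1.33). The dendritic lists together were higher in WB1P-Myc by 0.33 (0.09 to 0.56), with 3 of 6 mature genes higher beside the 12.3% over all genes, and 1 of 4 cDC2 genes higher and 1 lower. The summed value was -0.11 in the MiSeq run and -0.061 with the myeloid criterion at 5 UMIs per 1000. The class II genes were mixed between the models. Of the genes of the choice Cd74 was at -0.90, H2-Aa at -0.27, H2-Ab1 at -0.30 and H2-Eb1 at 0.22 (-0.99 to 1.55). Of 5 tested genes of the machinery 0 were higher and 1, H2-DMa (-1.09), was lower, with H2-DMb1 at -0.75, H2-DMb2 at -0.75, Ifi30 at 0.88 and Lgmn at 0.81, beside the 6.01% lower over all genes. In the MiSeq run the Lgmn ratio turned, to -1.90. Of 7 chemokines 1 was higher and 2 lower, and 3 of 12 lysosome and lipid genes were lower, beside the same 6.01%. Spp1 (osteopontin), at -2.29, was among the genes that cells outside the myeloid gate also carried unequally, at 8056 CPM in WB1P and 369 CPM in WB1P-Myc.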

How the data were processed

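Single-cell transcriptomes of WB1P and WB1P-Myc mammary tumours were measured by Drop-seq. The deposited files are raw UMI counts per gene symbol and cell barcode, made by the authors with dropseq-tools per the methods of the study. There were 16 tables of 1000 barcodes and 23829 genes, and Scanpy and mm10 are named in the submitters' processing notes. The aligner was not given in the sources used here. Values are from the 8 HiSeq tables. The MiSeq tables of the same fractions served as an alternative and hold mostly other barcodes, with 59 shared over the 8 pairs of tables and at most 11 in a pair, so they are not a second reading of the same cells.

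Cells were kept by the study's window of 450 to 4000 genes and under 20% mitochondrial UMIs. This upper limit is the only treatment of doublets, and no doublet caller was run. HiSeq libraries held 256985 to 4960334 UMIs. UMIs were summed over the cells of a class within each fraction and model and divided by their total (CPM). Shares have exact Clopper-Pearson intervals, CPM exact Poisson intervals and log2 ratios of 2 sums conditional binomial intervals, all at 95%. A class at 0 was set to a floor of 3 counts, and no ratio was formed where both classes had 3 counts or fewer. Genes with at least 10 counts over both classes in each model (20 over both models for the contrast of the models) entered the counts of genes, and a gene was counted where it passed 2-fold the same way in both models. Fits with p-values were not made since each model is 1 sample. The scripts were checked on simulated data.

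The members, lists and comparisons were chosen with earlier results of these data known. Named genes were the genes of the choice, those of the dendritic, MHC class II, co-stimulation and chemokine lists, the highest and lowest 2 of other lists, and the 12 (C1q macrophages), 8 (C1q-negative cells low in MHC class II) or 6 (models) genes highest and lowest by the interval bound nearest 0 in the model where it was nearer. For the models, only genes at least as high in members of the higher model as in cells outside the myeloid gate of that model were ranked. Genes of the choice and mitochondrial genes were left out of all rankings. Genes named within sets of members, Il1r2 and the Ccr2, Ms4a7 and Spp1 values between the models were chosen after their values were seen. Alternatives were the MiSeq run, other limits on genes, myeloid and MHC class II UMIs, leaving out members with epithelial UMIs or a fraction, the count minimum, and scaling by TMM (edgeR 4.0.16) or median of ratios (DESeq2 1.42.0). Python 3.11.15, numpy 2.4.6, scipy 1.17.1, pandas 2.3.3, matplotlib 3.10.9 and R 4.3.3 were used. The values of 2 genes are not reported here.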

Additional observations from a re-analysis of the deposited data

Results flagged for a closer look

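In 5 of 32 groups of 4 fractions the highest or lowest fraction lay apart from the others by Dixon's 95% criterion on the gap over the range, where chance gives about 1 in 20. The share of members in WB1P was lowest, 0, in the shallow first fraction (0.831). In WB1P-Myc members Cd63 was lowest in fraction 2, at 272 CPM against 694 to 746 CPM in the others (0.890). Cxcl1 was lowest in fraction 4, at 181 CPM against 578 to 602 CPM (0.943), a fraction with 8 members. H2afy was highest in fraction 2, at 816 CPM against 602 to 638 CPM (0.833). S100a11 was highest in fraction 4, at 2086 CPM against 527 to 646 CPM (0.924).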

How the results depend on the processing

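No paired analysis was possible because the result comes from no test and each model is 1 sample. Over all alternatives, 316 values of the comparisons stayed within their counting error or within 1.5 times for counts, 37 moved and 2 reversed, and of the values of named genes 4699 stayed, 278 moved and 20 reversed. Most alternatives reuse many of the same cells, so these totals are a weak check. In the MiSeq run, which holds mostly other cells, 4 values of the comparisons stayed, 11 moved and 1 reversed. Of the values of named genes 54 stayed there, 70 moved and 12 reversed. Small sums set the limits: the members held 172889 UMIs in all, so genes with few UMIs have wide intervals.

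In the MiSeq run the WB1P-Myc share was 1.39%. Against C1q macrophages 11 genes were higher and 16 lower, against C1q-negative cells low in MHC class II 61 and 63, and between the models 18 and 35. Counts of genes under this and the other alternatives are given without the number tested under each, which can differ. There the dendritic lists were at 1.55 over the C1q-negative low cells in WB1P-Myc and at -0.11 between the models, a reversal, and 4, 9 and 5 members had 2 or more UMIs of the cDC1, cDC2 and mature lists. Ratios over C1q macrophages reversed there in WB1P for Acp5 (1.19), Itgam (-0.081), Lmnb1 (-0.32), Napsa (-0.64) and Plbd1 (-1.49) and in WB1P-Myc for Cd83 (-0.11), and ratios between the models for Arg1 (4.08), Ccl9 (0.045), Il12b (a bound of -0.54 or lower), Lgmn (-1.90), Marcksl1 (-0.32) and Mmp12 (2.82).

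With at least 200 genes the dendritic lists over the C1q-negative low cells were at 1.51 in WB1P, with no upper limit at 2.59 in WB1P-Myc, and with at least 600 genes the WB1P share was 2.30%. With at least 10 MHC class II UMIs per 1000 Areg was at -2.01 in WB1P. With at least 4 myeloid UMIs the dendritic lists in WB1P-Myc were at 0.67 over C1q macrophages and 1.27 over the C1q-negative low cells, Ccl5 at -1.20, and 142 and 156 genes passed against the latter. Without members and cells with 3 epithelial UMIs those lists were at 1.60 and 2.15, with 220 and 162 genes. Under TMM the lists over C1q macrophages were at 0.19 in WB1P, with 41 and 198 genes. With no count minimum 135 genes were higher than in C1q macrophages, and 1023 and 531 differed between the models. With the myeloid criterion at 5 per 1000, chosen after seeing the data, the WB1P-Myc share was 1.69%, the dendritic lists were at 0.40 over C1q macrophages in WB1P-Myc, 0.84 and 0.48 over the C1q-negative low cells (27 and 19 genes) and -0.061 between the models, and values reversed for Ccl22 (-0.66) and Ccl5 (-1.19) over C1q macrophages and Gas5 (0.15) over the C1q-negative low cells, all in WB1P-Myc, and for Ccl17 (0.54) between the models.

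Leaving out each fraction in turn gave -2.68 to 2.59 for Areg (WB1P) and -1.72 to 4.25 for Ccl5 (WB1P-Myc). The genes higher than in the C1q-negative low cells then numbered 290 to 444 (lower, 315 to 432), those higher in WB1P-Myc 117 to 227 (lower, 77 to 94), and those against C1q macrophages 70 to 89 and 91 to 113. Shares were 3.29 to 3.70% and 1.97 to 2.70%, and the dendritic lists were at 0.44 to 0.56 and 0.74 to 0.99 over C1q macrophages, 1.95 to 2.03 and 2.20 to 2.48 over the C1q-negative low cells and 0.21 to 0.41 between the models. The cause of these changes was not tested.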

Other observations

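The members also divided by how many of the 6 myeloid genes' UMIs they held, a split made after the data were seen. Of the 124 members, 27 (8 in WB1P and 19 in WB1P-Myc) had under 5 such UMIs per 1000, with 10 members between 4 and 6, and 97 had more. The median depth was alike, at 1167 and 1194 UMIs. The dendritic lists summed to 4399 CPM in the 8 against 3370 CPM in the other WB1P members, and to 8146 CPM in the 19 against 3229 CPM in the other WB1P-Myc members. The mature list was at 896 against 893 CPM in WB1P and 5043 against 1012 CPM in WB1P-Myc, so its levels lay apart in WB1P-Myc and not in WB1P. With both models together, the 27 held 7 of 7 Xcr1 UMIs, 12 of 13 Ccl22 UMIs, 22 of 23 Il12b UMIs, 21 of 28 Ccr7 UMIs and 47 of 57 Ccl5 UMIs, but few cells carried them. The Il12b UMIs were in 2 cells, 10 of the 12 Ccl22 UMIs in 2, 17 of the 21 Ccr7 UMIs in 2 (14 in 1 cell), 44 of the 47 Ccl5 UMIs in 2 and the Xcr1 UMIs in 3. Naaa was at 615 against 189 CPM, with UMIs in 10 of the 27 and 14 of its 25 UMIs there in 2 cells. Of the class II genes Cd74 was at a log2 ratio of 0.21, H2-DMb2 at 0.015 and H2-DMa at -0.35 (-1.16 to 0.38), while H2-DMb1 was at -1.01 (-1.94 to -0.19), with 345 against 696 CPM.

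In these 27 cells several genes that macrophages or monocytes express were lower, Lgmn at -3.41, Maf at -3.65, Ccl9 at -2.38, Sirpa at -1.96, Ccl6 at -1.66, Zeb2 at -1.65 and Itgam at -1.45. The monocyte genes were mixed, with Ccr2 at -0.80 (-1.59 to -0.09), Fn1 at -1.28 (-2.20 to -0.48), Ly6c2 at -1.41 (-3.78 to 0.29), Plac8 at 0.41 (-0.38 to 1.15) and F13a1 at 0.22 (-1.61 to 1.77). Thbs1 had 0 UMIs against 31, Vcan 0 against 10, Chil3 0 against 6 and Ifitm6 0 against 5. The median cell had 0 UMIs of Apoe and Cd14 against 3 and 4 in the 97, and 13 against 12 UMIs of H2-Aa. The lower levels of Apoe and other genes that vary with the 6 myeloid genes follow in part from the split. Epithelial genes were at 566 CPM in the 27 against 295 CPM, 3 of the 27 had 3 or more epithelial UMIs and 1 had 2 or more B cell UMIs, and their part in these values was not tested.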
